A study of Mus musculus with 36 samples.

Results

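Abcb4, Abcb9, Abcc4 and Abcg2 are the 4 genes with an Abc symbol among the 988 genes of a targeted mouse immuno-oncology panel (QIAseq). All 4 were taken by name, and earlier results of these data were known when the choice was made. The panel was read in 36 samples of mouse colon or colon carcinoma in 9 groups, and 34 libraries were analysed here. Of 48 names on a list of the ABC (ATP-binding cassette) family, 6 were on the panel: these 4 and the antigen peptide transporters Tap1 and Tap2, which are set beside them. The study asked what mast cells do in colon tumours and in the lesions that precede them.

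All mice were of the C57BL/6 background. Sash mice (Kit "sash" mutation, cKitw-sh) carry a regulatory mutation of Kit, the stem cell factor receptor, and lack most mast cells, and the mutation is present in every cell of the animal, not in mast cells alone. Colon tumours came from sash (n = 5) and wild-type mice (n = 5) in postnatal week 32, 18 weeks after the last of 6 weekly intraperitoneal injections of azoxymethane (AOM, 10 mg/kg), a carcinogen of the colon. Preneoplastic lesions came from sash (n = 3) and wild-type mice (n = 3) in week 14, after 3 AOM injections over 3 weeks and 3 more weeks. A further wild-type set of week 14 comprised mice given cromolyn, a mast cell stabiliser, together with AOM for 3 weeks and killed 3 weeks later (n = 3), mice given AOM and then cromolyn for 3 weeks (n = 3), and mice given AOM only (n = 3). Tumours of MC-38, a single mouse colon carcinoma line, came from sash (n = 5) and wild-type hosts (n = 4), with saline as the labelled treatment. All groups with AOM lack an AOM-free control. Nothing in the labels says that samples are from different animals, so p-values measure the spread between these samples, part of which may be technical.

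ABC transporters use ATP to move substrates across a membrane. Abcc4 (MRP4) exports cyclic nucleotides, prostaglandins and conjugated drugs from many cell types. Abcg2 (BCRP) sits in the apical membrane of the intestinal epithelium, where it returns drugs, dietary carcinogens, urate and porphyrins to the lumen. Abcb9 (TAPL) carries peptides into lysosomes. Abcb4 (the human MDR3, also called Mdr2 in mice) moves phosphatidylcholine into bile at the hepatocyte membrane. Tap1 and Tap2 together bring peptides into the endoplasmic reticulum for MHC class I.

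The start regions of Abcc4 and Abcg2 are shown because these genes differed between tumours and lesions, in opposite directions. Each window runs from 250 bases before to 50 after an annotated start (RefSeq, GRCm38.p6), written 5′ to 3′ in the gene's direction. All 4 transporters matched RefSeq, with 7 windows between them, and the most GC-rich window of each gene is printed. Abcc4 lies on the minus strand (chr14:118706170-118706469) and Abcg2 on the plus strand (chr6:58640296-58640595). Capitals mark letters of the AHR element core (GCGTG, or CACGC on the other strand) and of the antioxidant response element (TGANNNNGC, or GCNNNNTCA).
Abcc4: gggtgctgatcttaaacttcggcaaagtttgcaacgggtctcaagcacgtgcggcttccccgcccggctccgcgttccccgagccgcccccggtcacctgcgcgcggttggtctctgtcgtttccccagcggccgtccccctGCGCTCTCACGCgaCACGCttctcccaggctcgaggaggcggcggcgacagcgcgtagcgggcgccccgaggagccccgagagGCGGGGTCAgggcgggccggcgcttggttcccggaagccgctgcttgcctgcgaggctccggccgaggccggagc
Abcg2: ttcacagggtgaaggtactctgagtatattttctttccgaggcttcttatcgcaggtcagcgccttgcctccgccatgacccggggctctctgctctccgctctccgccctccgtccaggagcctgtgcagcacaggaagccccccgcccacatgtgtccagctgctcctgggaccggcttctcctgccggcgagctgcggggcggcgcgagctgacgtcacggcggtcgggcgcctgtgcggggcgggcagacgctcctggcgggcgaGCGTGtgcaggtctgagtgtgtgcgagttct
The Abcc4 window was 72.7% GC and held 2 copies of each set of letters, with 1 antioxidant and 1 AHR match overlapping in the run GCGCTCTCACGC. The Abcg2 window was 67% GC and held 1 AHR match and 0 antioxidant matches. Of the windows not printed, that of Abcg2 from chr6:58584283 and that of Abcc4 from chr14:118676882 held 1 antioxidant match each and 0 AHR matches. The remaining Abcg2 window held neither. Among 32851 windows of the same length, 32.4% held the AHR letters and 41.3% the antioxidant letters. The TCF/LEF core (CTTTGA, or TCAAAG) was in 0 of the 7 windows and in 16% of all windows. A match describes the letters only.

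Values are counts of a short amplified stretch of each transcript, so levels are not compared between genes. A level is given in CPM, the count per 1000000 counts of the library's TMM-scaled size, and the AOM and MC-38 tables were scaled separately. Library totals were 449880 to 1264354 counts in the AOM libraries and 480136 to 986415 in the MC-38 libraries. Differences are given as log2 fold changes, each with its SE and p from edgeR's quasi-likelihood test, adjusted over all genes tested (Benjamini-Hochberg). A gene was called at an adjusted p below 0.05. The number that ends a column's name repeats among the lesions (12 and 13). It also repeats between other AOM groups, such as 2 in wild-type tumours and AOM only. No source used here gives the sequencing run of a library. Epcam, an epithelial marker, was high in every AOM group (mean 13920 to 28056 CPM), and the summed CPM of Epcam and Muc1 was only 2.11 to 9.06 in the MC-38 libraries. The epithelial markers of the panel were thus near 0 in the MC-38 tumours. Cpa3, a mast cell protease, averaged 3.37 CPM in sash tumours and 40.8 CPM in wild-type tumours, 0 in sash lesions and 11.6 CPM in wild-type lesions, and 4.58 CPM in MC-38 tumours of sash hosts and 507 CPM in those of wild-type hosts. The summed CPM of all 9 mast cell markers of the panel overlapped between genotypes in AOM tumours. It was 271 to 609 in sash and 461 to 819 in wild type. There 0 of 7 tested genes were called (0 of all 797 genes), and their median log2 fold change, sash over wild type, was -0.95. In lesions the sums were 336 to 442 CPM in sash and 580 to 814 CPM in wild type. Of 4 tested genes 1 was called lower (Kit), and their median was -0.24. In MC-38 tumours the sums were 573 to 1055 CPM in sash and 1349 to 2002 CPM in wild-type hosts. Of 5 tested genes 3 were called lower, and their median was -6.27.

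**Figure D1:**
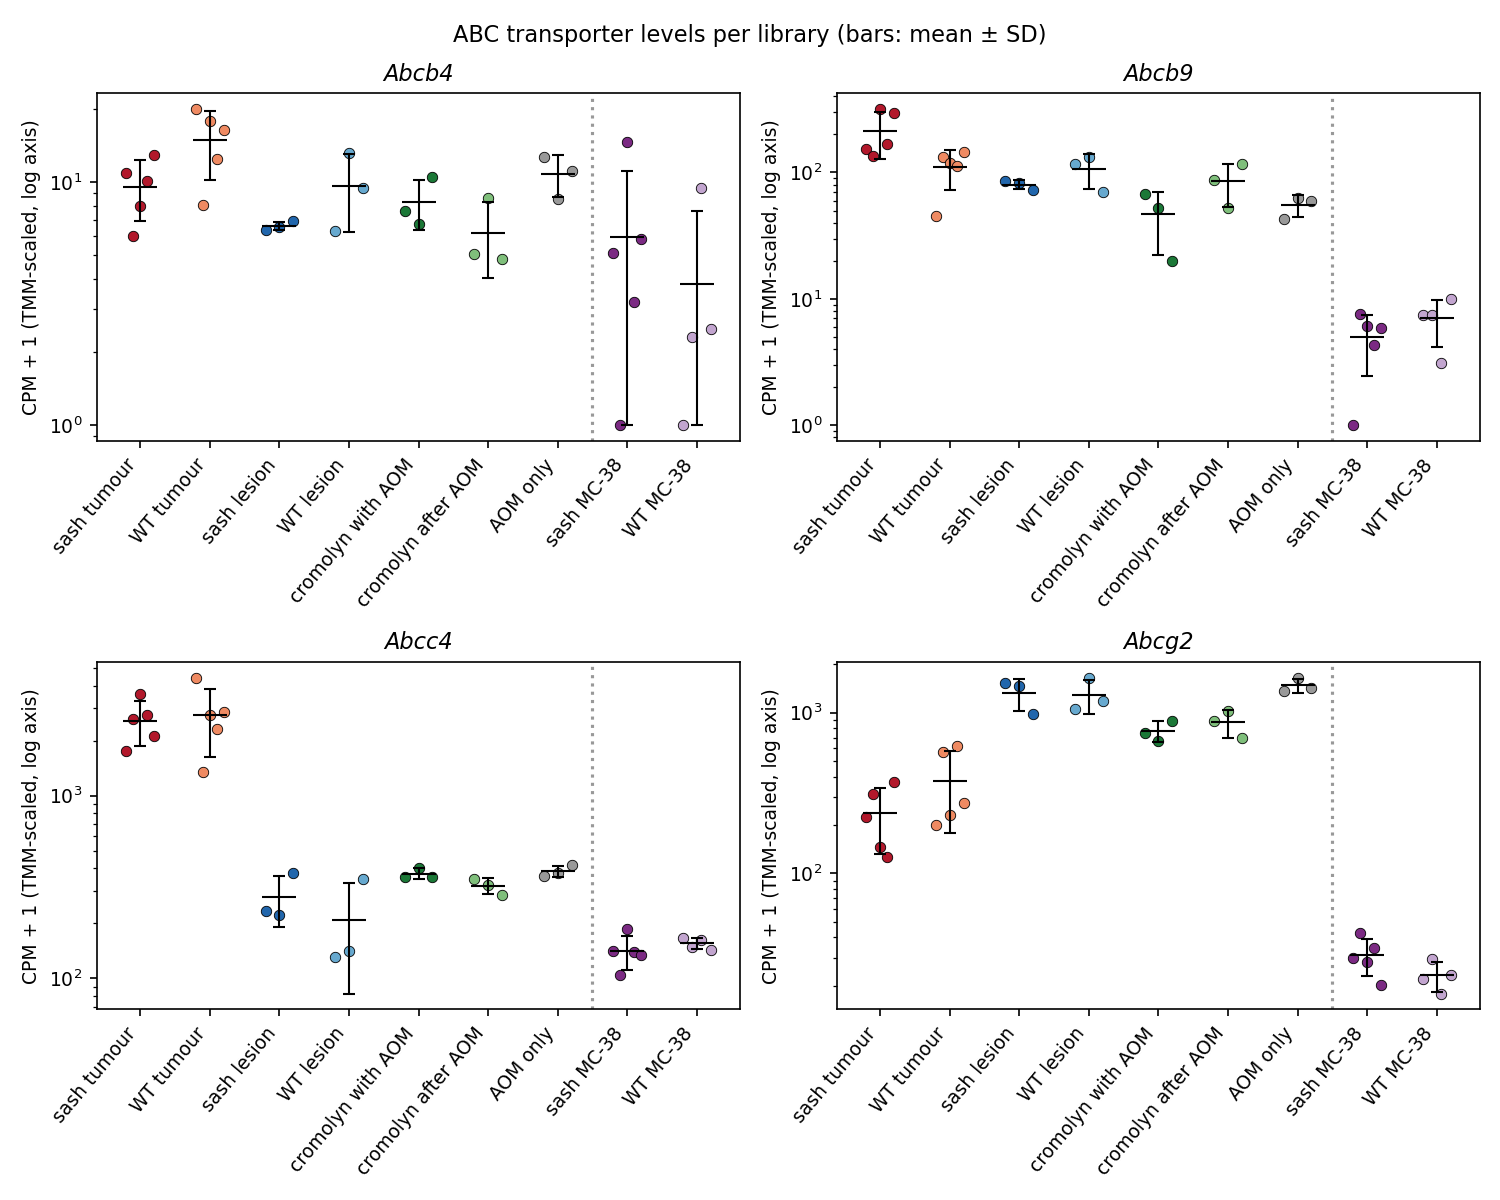
Level of each transporter in every library (vertical axis, CPM + 1, log scale) by group, with the mean and SD, and a dotted line between the 2 tables. SD bars are cut at 1 where the mean minus the SD falls below 0. Abcc4 lies at 1349 to 4409 CPM in the 10 AOM tumours and at 129 to 414 CPM in the 15 samples of week 14, and Abcg2 at 126 to 619 CPM and at 664 to 1647 CPM.

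Abcc4 was far higher and Abcg2 far lower in tumours than in preneoplastic lesions, in both genotypes. Abcb9 rose in sash tumours, and Abcb4 passed the test in neither genotype. Many genes separated these stages: of 848 genes tested, 47.5% were called in sash mice (23.9% higher, 23.6% lower) and 37% in wild-type mice (19.5% higher, 17.6% lower). Groups without overlap were found with tumours above for 27.5% of genes in sash and 16.7% in wild-type mice, and with tumours below for 25.1% and 11.7%. The 3 of 4 transporters called in sash mice and the 2 of 4 called in wild-type mice are to be read against those shares. Age, the number of AOM doses, the tissue taken and any sequencing run change together with stage and cannot be told apart.

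Abcc4 stood at 1759, 2620, 3594, 2770 and 2111 CPM in sash tumours 1 to 5, against 233, 221 and 376 CPM in sash lesions 1 to 3. In wild-type mice, Abcc4 stood at 4409, 1349, 2772, 2321 and 2856 CPM in tumours 1 to 5, against 129, 139 and 350 CPM in lesions 1 to 3. Every tumour lay above every lesion, and within both genotypes lesion 3 was the highest lesion. Abcc4 was 9.13-fold higher in sash tumours (95% interval 5.10 to 16.4; log2 3.19, SE 0.43, adjusted p 4.29e-05) and 12.8-fold higher in wild-type tumours (7.03 to 23.3; log2 3.68, SE 0.44, adjusted p 3.13e-05). By p it ranked 31 and 10 among the 848 genes. The wild-type value depends on which samples of week 14 are taken: it was 4.33 on the log2 scale without wild-type lesion 3, and 2.81 (adjusted p 3.8e-05) with the AOM-only group in place of the wild-type lesions. Over all alternatives its adjusted p was at most 0.000560.

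Abcg2 stood at 224, 312, 145, 126 and 369 CPM in sash tumours 1 to 5, against 1530, 1470 and 983 CPM in sash lesions. Wild-type tumours 1 to 5 held 200, 565, 230, 619 and 273 CPM of Abcg2, against 1057, 1647 and 1176 CPM in wild-type lesions. Again no tumour overlapped a lesion, this time with the tumours below, and wild-type tumours 2 and 4 were the highest tumours. Abcg2 was 5.65-fold lower in sash tumours (log2 -2.50, SE 0.40, adjusted p 0.000194) and 3.54-fold lower in wild-type tumours (log2 -1.82, SE 0.40, adjusted p 0.00299). Wild-type tumours 2 and 4 also stood apart in marker sums: tumour 4 had the highest summed CPM of surface colonocyte genes among the tumours (52160) and tumour 2 the highest sum of B cell genes (751). Over all alternatives the adjusted p of Abcg2 in wild-type mice was at most 0.0225.

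The surface colonocyte genes of the panel, which mark the differentiated cells at the top of the crypt, fell with Abcg2. Of 5 tested genes (Car4, Tmigd1, Emp1, Ceacam1 and Ceacam20), 4 were lower in sash tumours and 5 in wild-type tumours, with none higher, and their median log2 fold changes were -2.37 and -2.29 (0.02 and -0.00 over all genes). Their summed CPM was 15465 to 23749 in sash tumours and 74249 to 119737 in sash lesions. Wild-type tumours held 19530 to 52160 and wild-type lesions 74494 to 126426. The markers of epithelium as a whole did not move together. Muc1, an epithelial mucin, rose in both genotypes (log2 1.53, SE 0.41, adjusted p 0.00649 in sash and 2.45, SE 0.43, adjusted p 0.000647 in wild-type mice), while Epcam was at 0.07 and 0.20 and passed in neither. Epcam averaged 27744 ± 2364 CPM in sash tumours and 26213 ± 3659 CPM in sash lesions (SD, n = 5 and 3), and 28056 ± 4592 CPM in wild-type tumours and 23673 ± 2073 CPM in wild-type lesions (SD, n = 5 and 3). In bulk RNA, fewer cells of a type and less RNA per cell cannot be told apart, and the part of the cell makeup in the Abcg2 difference was not tested. Neutrophil genes moved with Abcc4: all 4 tested genes rose in both genotypes, with summed CPM of 522 to 912 in sash tumours and 17.9 to 20.8 in sash lesions, and of 76.5 to 354 in wild-type tumours and 13.2 to 24.8 in wild-type lesions. Other markers moved between the same stages. Of 8 tested macrophage genes 4 rose and 1 fell in sash and 3 rose and 1 fell in wild-type tumours, and of 4 stroma genes 2 rose and 1 fell in each genotype. Of 7 B cell genes 0 were called in sash and 5 fell in wild-type tumours, and of 10 T cell genes 1 fell in sash and 4 fell in wild-type tumours. The part of these cell types in the Abcc4 and Abcg2 differences was not tested.

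Abcb9 stood at 153, 133, 315, 168 and 296 CPM in sash tumours 1 to 5, against 84.1, 82.0 and 71.9 CPM in sash lesions. Wild-type tumours 1 to 5 held 44.4, 132, 119, 112 and 144 CPM, against 117, 132 and 69.7 CPM in wild-type lesions. All 5 sash tumours lay above the sash lesions, while wild-type tumours and lesions overlapped. Abcb9 was 2.67-fold higher in sash tumours (1.54 to 4.63; log2 1.42, SE 0.41, adjusted p 0.0104), and its log2 fold change in wild-type mice was 0.02 (SE 0.39, adjusted p 0.970). With AOM only in place of the wild-type lesions, the wild-type value was 1.00 (adjusted p 0.0512, the lowest of all alternatives). The difference of the genotype effects between stages was 1.39 for Abcb9 (SE 0.55, p 0.0218, adjusted p 0.272), so that a difference between genotypes was not shown.

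Abcb4 was measured at a few counts per library: 13, 6, 9, 11 and 13 counts in sash tumours and 3, 4 and 5 in sash lesions, and 23, 5, 16, 11 and 13 counts in wild-type tumours and 3, 8 and 9 in wild-type lesions. Tumours and lesions overlapped in CPM. The log2 fold changes were 0.58 (SE 0.47, adjusted p 0.314) in sash mice and 0.64 (SE 0.44, adjusted p 0.254) in wild-type mice, with 95% intervals of the fold of 0.795 to 2.83 and 0.861 to 2.84. Tap1, a subunit of the antigen peptide transporter, had log2 fold changes of -1.13 (SE 0.47, adjusted p 0.0571) in sash and -0.80 (SE 0.47, adjusted p 0.185) in wild-type mice, and DESeq2 gave the sash value an adjusted p of 0.0407.

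**Figure D2:**
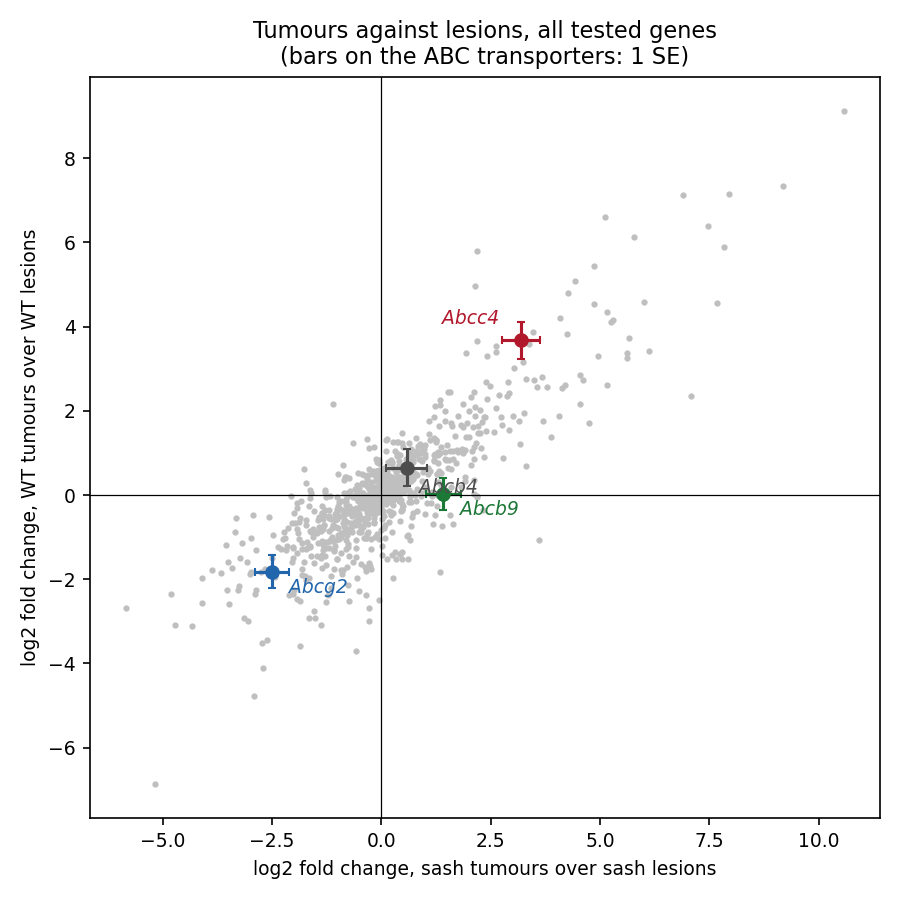
Log2 fold change of tumours over lesions in sash mice (horizontal) against that in wild-type mice (vertical) for all 848 tested genes (grey) and the transporters (coloured, bars of 1 SE). The 2 axes use different mice. Abcc4 lies at 3.19 and 3.68, Abcg2 at -2.50 and -1.82, Abcb9 at 1.42 and 0.02, and Abcb4 at 0.58 and 0.64.

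Set against all samples of week 14, the separation was the same for these genes. Abcc4 ran over 1349 to 4409 CPM (median 2695) in the 10 tumours and over 129 to 414 CPM (median 350) in the 15 samples of week 14. Abcg2 ran over 126 to 619 CPM (median 251) in the tumours and over 664 to 1647 CPM (median 1057) in the samples of week 14. Such a separation was found for 7.32% of 847 genes with tumours above and for 1.42% with tumours below. Abcb9 (44.4 to 315 CPM in tumours, 18.9 to 132 in week 14) and Abcb4 (4.97 to 18.9 CPM in tumours, 3.81 to 12.1 in week 14) overlapped.

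Genes of lists drawn up around the transporters' substrates were on the panel in small numbers, and not all of them handle such a substrate. Abcc4 exports cyclic nucleotides, and of 5 tested genes of cyclic nucleotide signalling 4 rose in tumours of both genotypes and none fell, where 23.9% of all genes rose in sash and 19.5% in wild-type mice. Their fold changes had medians, as log2 values, of 1.04 in sash and 0.59 in wild-type mice. The 4 were Adcy1, an adenylate cyclase (3.68 in sash and 2.80 in wild-type mice), Pde4b, which breaks down cAMP (1.04 and 0.59), Creb1, a transcription factor that cAMP activates (0.61 and 0.59), and Tmem173, which encodes STING, a receptor of cyclic dinucleotides (2.86 and 2.35). Of 5 genes of prostaglandin and leukotriene metabolism, 1 rose and 2 fell in sash tumours and 1 rose and 1 fell in wild-type tumours. Hpgd, which degrades prostaglandins, was at -3.07 in sash and -1.59 in wild-type mice, and Lta4h, which makes leukotriene B4, at 0.72 and 0.84.

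Of 4 detoxification genes, 2 rose and 2 fell in sash tumours and 2 rose and 1 fell in wild-type tumours. Ggt1, which cleaves glutathione conjugates, was at 2.20 in sash and 3.65 in wild-type mice, and the glutathione transferase Gsta4 at 2.16 in wild-type mice. Gstt1, another glutathione transferase, fell by 2.98 on the log2 scale in sash and by 1.83 in wild-type mice. Around Tap, 1 of 9 genes rose and 5 fell in sash tumours and 2 of 9 fell in wild-type tumours, B2m (the MHC class I light chain) among them at -1.15 in sash and -1.93 in wild-type mice. Of the 2 haem and iron genes, Cd163, a macrophage receptor for haemoglobin complexes, fell in both genotypes (-4.81 in sash and -2.36 in wild-type mice). Of the 2 lipid and sterol genes, Apoe rose (1.53) and Pparg fell (-1.05) in sash mice, and neither passed in wild-type mice. All these adjusted calls are from edgeR's quasi-likelihood test.

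**Figure D3:**
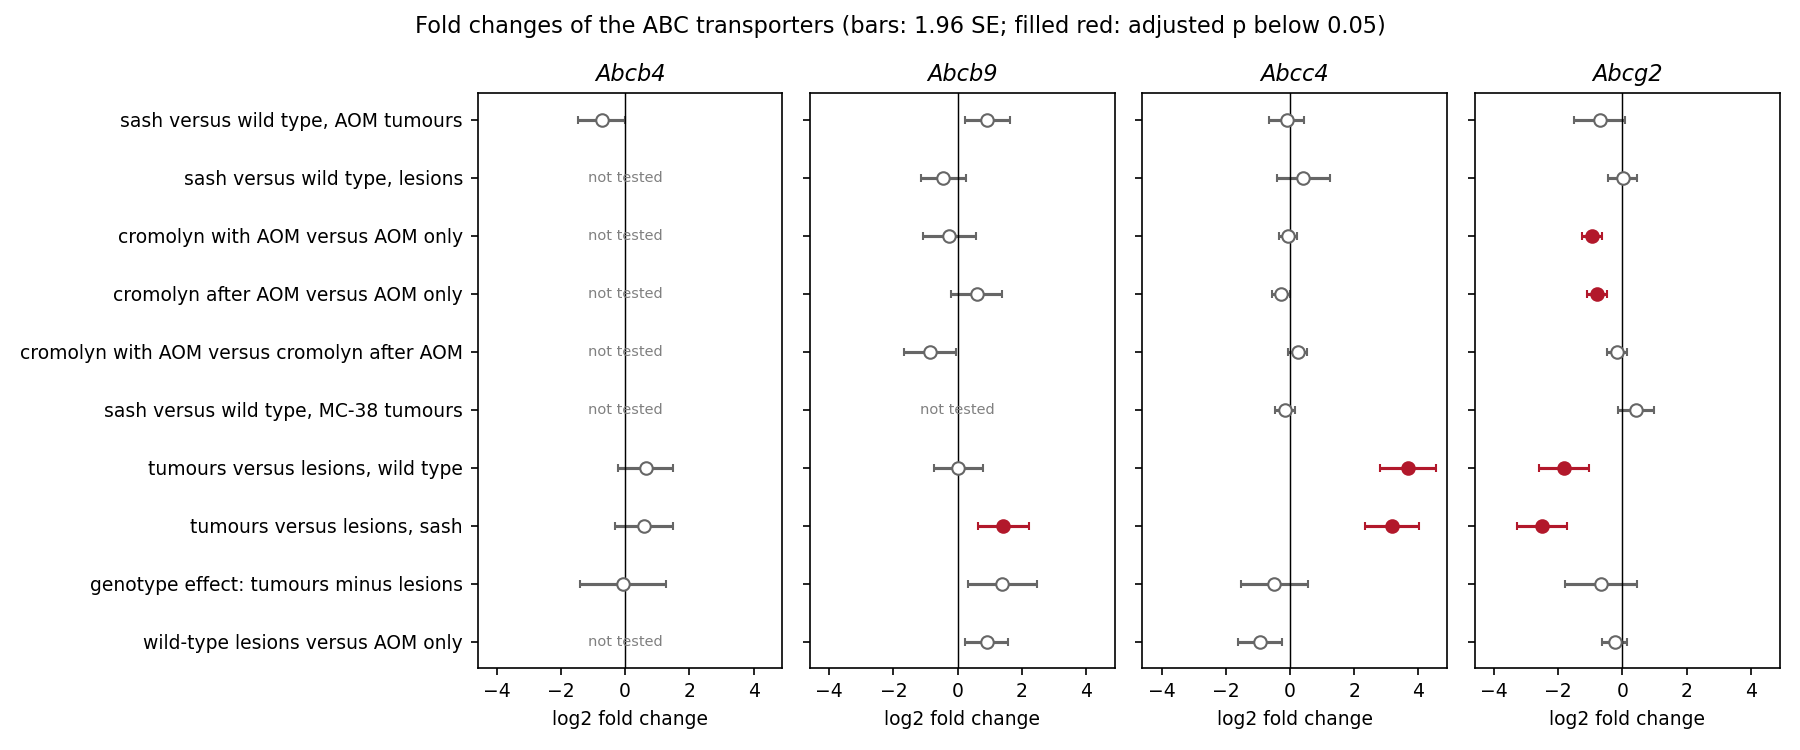
Log2 fold change of each transporter in every comparison, with 95% intervals (normal) and calls at an adjusted p below 0.05 filled in red. A normal interval can clear 0 without a call. For Abcc4 with cromolyn after AOM the fold interval was 0.675 to 0.998, with an unadjusted p of 0.0699 from edgeR's quasi-likelihood test. Abcc4 and Abcg2 were called in both comparisons of tumours with lesions, Abcg2 in both comparisons of cromolyn with AOM only, and Abcb9 in sash tumours against sash lesions.

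Between sash and wild-type tumours, none of the 4 transporters passed. Abcb9 came nearest: sash tumours averaged 213 ± 85.6 CPM and wild-type tumours 110 ± 38.9 CPM (SD, n = 5 each), and 4 of 5 sash tumours lay above all wild-type tumours. Its log2 fold change was 0.93 (SE 0.36, p 0.0249, adjusted p 0.193). Abcg2 had a log2 fold change of -0.71 (SE 0.41, adjusted p 0.361), Abcb4 of -0.72 (SE 0.37, adjusted p 0.315) and Abcc4 of -0.11 (SE 0.28, adjusted p 0.849). Tap1 was at -0.50 (SE 0.49, adjusted p 0.586). No transporter separated the genotypes, while 5.4% of genes did. edgeR called 0 of 797 genes (0%), while 19.9% had an unadjusted p below 0.05 and DESeq2 called 82. With single samples left out, the Abcg2 value stayed between -0.94 and -0.47. Without wild-type tumours 2 and 4, the highest of that group in Abcg2 and left out after seeing the data, it was 0.0082.

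In the lesions the genotypes overlapped for all 4 transporters, while 24.3% of genes showed no overlap. Abcc4 averaged 277 ± 86.4 CPM in sash lesions and 206 ± 125 CPM in wild-type lesions (SD, n = 3 each), a log2 fold change of 0.42 (SE 0.42, adjusted p 0.682). That value is from the fit without pairing. Deviations of same-numbered lesions correlated over genes (r 0.37, 0.14 and 0.50), but lesions of different numbers were not compared. The numbers come from the sample titles, which give no pairing. Between lesions of the same number Abcc4 was higher in the sash lesion in all 3 cases (233 and 129 CPM, 221 and 139 CPM, 376 and 350 CPM). That count depends on the numbering, since wild-type lesion 3 lay above sash lesions 1 and 2. With the replicate number as a block the value was 0.50 (SE 0.24, adjusted p 0.217). Without the block, it was 1.02 when wild-type lesion 3 was left out and 0.07 when sash lesion 3 was left out. Abcb9 was at -0.44 (SE 0.36, adjusted p 0.595) and Abcg2 at 0.01 (SE 0.23, adjusted p 0.991). Tap1 was at -0.14 (SE 0.22, adjusted p 0.811). Abcb4 was too low to test, with 12 counts in sash lesions and 20 in wild-type lesions (ratio of pooled counts over library totals 0.658, exact 95% interval 0.293 to 1.41). Summed B cell CPM was 47.2 to 261 in sash lesions and 718 to 2672 in wild-type lesions. Here 2.84% of 775 genes were called (22 genes, and 84 with the replicate number as a block). The difference of genotype effects, tumours minus lesions, was -0.49 for Abcc4 (SE 0.53, adjusted p 0.687), -0.67 for Abcg2 (SE 0.57, adjusted p 0.589; -0.93 to -0.46 with single samples left out) and -0.06 for Abcb4 (SE 0.69, adjusted p 0.981). For that difference edgeR called 0 of 848 genes (0%), 15.1% had an unadjusted p below 0.05 and DESeq2 called 20. Over the settings other than single left-out samples, the Abcg2 difference of genotype effects ran from -0.86 to -0.0058.

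Cromolyn was the drug used to stabilise mast cells around the AOM doses, and Abcg2 was the only one of the 4 transporters that passed in its comparisons with AOM only. With cromolyn given together with AOM, Abcg2 stood at 750, 664 and 893 CPM, against 1371, 1640 and 1416 CPM with AOM only. With cromolyn after AOM it stood at 886, 1027 and 691 CPM. Every cromolyn sample lay below every AOM-only sample, and the 2 cromolyn groups overlapped. Abcg2 was 1.94-fold lower with cromolyn during AOM (log2 -0.95, SE 0.16, adjusted p 0.0245; lower in 3 of 3 samples) and 1.72-fold lower with cromolyn after AOM (log2 -0.78, SE 0.16, adjusted p 0.0333; lower in 3 of 3 samples). The comparisons share the AOM-only samples, so they are not independent.

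How many genes were called with cromolyn depended on the tool. During AOM, 0.26% of 768 genes were called (0.13% lower), and Abcg2 ranked 2 by p, after Psmb9, an immunoproteasome subunit (log2 1.03, SE 0.16, adjusted p 0.0219). After AOM, 4.82% were called (2.47% lower), and Abcg2 ranked 7. DESeq2 called 39 genes during AOM and 50 after it, and gave Abcg2 adjusted p-values of 0.00012 and 0.00224. Groups of 3 against 3 without overlap, cromolyn below, were found for 10.7% of genes during AOM and 15.5% after it, and with cromolyn above for 13.8% in each.

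The Abcg2 calls were sensitive to single samples, to scaling on Rpl13a and Tfrc and to the fit of all 25 AOM libraries. In each comparison 5 of the 7 settings other than left-out samples kept the call, RLE factors and library totals among them. During AOM the call was lost without AOM-only sample 2 (adjusted p 0.178), without AOM-only sample 3 (0.0973) or without cromolyn sample 1 (0.155). After AOM it was lost without AOM-only sample 1 (0.0788), 2 (0.114) or 3 (0.0552), and without cromolyn sample 1 (0.0870) or 3 (0.0606). With all 25 AOM libraries in 1 fit the adjusted p-values were 0.796 and 0.611, and with scaling on Rpl13a and Tfrc they were 0.0760 and 0.0679. Over all alternatives the adjusted p ran from 0.00012 to 0.796 during AOM and from 0.00224 to 0.611 after it. The log2 fold changes stayed between -1.06 and -0.87 during AOM and between -0.91 and -0.61 after AOM in all alternatives run.

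The other transporters passed in neither cromolyn comparison. Abcc4 stood at 359, 402 and 358 CPM with cromolyn during AOM, at 350, 324 and 286 CPM with cromolyn after AOM and at 362, 376 and 414 CPM with AOM only. The samples with cromolyn after AOM were all below those with AOM only, and those with cromolyn during AOM overlapped them. Log2 fold changes against AOM only were -0.05 (SE 0.14, adjusted p 0.882) during AOM and -0.29 (SE 0.14, adjusted p 0.266) after it. Abcb9 averaged 45.5 ± 24.1 CPM during AOM, 84.4 ± 32.4 CPM after AOM and 54.3 ± 10.7 CPM with AOM only (SD, n = 3 each), with log2 fold changes of -0.25 (SE 0.43, adjusted p 0.764) and 0.60 (SE 0.41, adjusted p 0.417). Abcb4 had 10, 8 and 14 counts in all over the 3 samples of each of these groups and was not tested.

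Tap1 lay the other way from Abcg2. It stood at 658, 507 and 559 CPM with cromolyn during AOM and at 609, 387 and 546 CPM with cromolyn after AOM, against 341, 231 and 375 CPM with AOM only. All cromolyn samples lay above the AOM-only samples, as for 13.8% of genes in each comparison. Neither passed in edgeR (log2 0.85, SE 0.21, adjusted p 0.0711 during AOM; log2 0.68, SE 0.21, adjusted p 0.0890 after it), and DESeq2 gave 0.0143 and 0.0677. Tap2 had 0 to 3 counts in every library of the series. Between the 2 cromolyn schedules Abcg2 differed by -0.17 (SE 0.16, adjusted p 0.788), Abcc4 by 0.23 (SE 0.14, adjusted p 0.660; higher in 3 of 3 samples, as for 6.25% of genes) and Abcb9 by -0.86 (SE 0.41, adjusted p 0.580), during minus after. There edgeR called 0 of 768 genes (0%), 8.33% had an unadjusted p below 0.05 and DESeq2 called 6.

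Surface colonocyte genes were again measured beside Abcg2. Car4, the carbonic anhydrase of surface colonocytes, stood at 11983, 14450 and 33303 CPM with cromolyn during AOM and at 18431, 22610 and 8155 CPM with cromolyn after AOM, against 44416, 39998 and 30849 CPM with AOM only. Its log2 fold changes were -0.97 (SE 0.45, adjusted p 0.314) and -1.25 (SE 0.45, adjusted p 0.153). The summed CPM of the 5 surface colonocyte genes was 51416 to 74242 during AOM, 67743 to 91103 after AOM and 79184 to 100067 with AOM only. None of the 5 was called during AOM, and Emp1 rose after AOM. The median log2 fold change of the 5 was -0.39 during AOM and 0.34 after it, so Car4 does not stand for the list after AOM. Of 7 B cell genes 0 were called in either comparison, with median log2 fold changes of 1.99 during AOM and 2.02 after it, and their summed CPM was 477 to 2211 during AOM, 324 to 1978 after AOM and 162 to 369 with AOM only. Of 3 proliferation genes, Birc5 (log2 0.75, adjusted p 0.0345) and Mki67 (log2 0.68, adjusted p 0.0396) rose after AOM and none was called during AOM. Of the detoxification genes, Gstt1 fell after AOM (log2 -0.62, SE 0.14, adjusted p 0.0356). The part of the cell makeup in these values was not tested.

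Wild-type lesions and the AOM-only group carried the same labelled treatment in separate sets of samples, so their comparison shows how far 2 sets lie apart. None of the 3 tested transporters passed, while 15.6% of 762 genes did. Abcb9 had 117, 132 and 69.7 CPM in wild-type lesions, against 42.1, 62.1 and 58.8 CPM with AOM only. Abcc4 had 129, 139 and 350 CPM in wild-type lesions, against 362, 376 and 414 CPM with AOM only. Neither gene's groups overlapped, as held for 21.1% of genes with the lesions above and 19.4% with the lesions below, and their log2 fold changes were 0.90 (SE 0.34, adjusted p 0.104) for Abcb9 and -0.93 (SE 0.35, adjusted p 0.103) for Abcc4. Without wild-type lesion 3 both were called, Abcb9 at 1.14 (adjusted p 0.0174) and Abcc4 at -1.56 (adjusted p 0.000693). Over all alternatives the adjusted p of Abcb9 ran up to 0.348 and that of Abcc4 up to 0.253. Tap1 was at 0.34 (SE 0.24, adjusted p 0.349). Abcg2 was at -0.24 (SE 0.20, adjusted p 0.420), and Abcb4 had 20 counts in wild-type lesions and 14 with AOM only. B2m was higher in wild-type lesions (log2 0.71, adjusted p 0.0323) and Ggt1 lower (-1.60, adjusted p 0.0471). Cell type markers differed as well: of 7 B cell genes 5 were higher in wild-type lesions (median log2 2.27), of 5 surface colonocyte genes Tmigd1 and Emp1 were higher, and of 4 stroma genes Col3a1 and Fn1 were lower. Kdr (endothelium), Adgre1 (macrophages), Fpr2 (neutrophils), Gata2 (a mast cell list) and Cd28 (T cells) were lower. Their part in the Abcb9 and Abcc4 values was not tested.

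In MC-38 tumours none of the transporters differed by host genotype past the threshold, where 1.26% of 714 genes were called. Abcc4 stood at 139, 103, 140, 132 and 185 CPM in sash hosts, against 165, 148, 142 and 162 CPM in wild-type hosts. The groups overlapped, as for all but 8.68% of genes, with 1 sash sample above and 4 below all wild-type samples, and the log2 fold change was -0.16 (SE 0.16, adjusted p 0.591). Abcg2 rested on 97 counts over 5 sash samples and 66 over 4 wild-type samples, at 30.0 ± 8.14 and 22.2 ± 4.80 CPM (SD), with a log2 fold change of 0.42 (SE 0.28, adjusted p 0.385). Tap1 was at -0.06 (SE 0.14, adjusted p 0.842). Abcb9 summed to 13 counts in sash hosts and to 17 in wild-type hosts (ratio of pooled counts over library totals 0.737, exact 95% interval 0.329 to 1.61), and Abcb4 had 15 and 10 (ratio 1.45, interval 0.608 to 3.60). Both were too low to test. A count of 0 for Abcb4 in 1 sash and 1 wild-type library allows up to 5.15 and 4.73 CPM (3 counts), and for Abcb9 in 1 sash library up to 6.25 CPM. Such intervals and limits cover counting error only.

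Within the AOM table the order of the group means is given for 2 genes, though most neighbours in it lay within their summed SDs. For Abcc4 it was the tumours (sash 2571 ± 700, wild type 2741 ± 1108 CPM; SD, n = 5 each), AOM only (384 ± 26.7), cromolyn during AOM (373 ± 25.4), cromolyn after AOM (320 ± 32.5), sash lesions (277 ± 86.4) and wild-type lesions (206 ± 125; SD, n = 3 each). For Abcg2 it was AOM only (1476 ± 144), sash lesions (1328 ± 300), wild-type lesions (1293 ± 312), cromolyn after AOM (868 ± 168), cromolyn during AOM (769 ± 115; SD, n = 3 each) and the tumours (wild type 377 ± 199, sash 235 ± 105; SD, n = 5 each). Among neighbours in these orders, only the step between the tumours and the rest exceeded the sum of the neighbouring SDs for Abcc4, and for Abcg2 only the step between cromolyn during AOM and wild-type tumours did. Abcb9 was highest in sash tumours (213 ± 85.6) and lowest with cromolyn during AOM (45.5 ± 24.1), and among neighbours in its order only the step between sash lesions (79.3 ± 6.52) and AOM only (54.3 ± 10.7) exceeded the summed SDs. Abcb4 means lay between 5.17 and 13.9 CPM.

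Over the 25 AOM libraries Abcc4 and Abcg2 ran in opposite directions (Pearson r -0.90 of log2(CPM + 1)). The points share the split between stages: within groups r was -0.58, among the 10 tumours -0.62 and among the 15 samples of week 14 -0.32. These values describe libraries that also share depth and scaling, and no test was made. The other 5 pairs ran from -0.53 (Abcb9 and Abcg2) to 0.51 (Abcb4 and Abcc4).

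**Figure D4:**
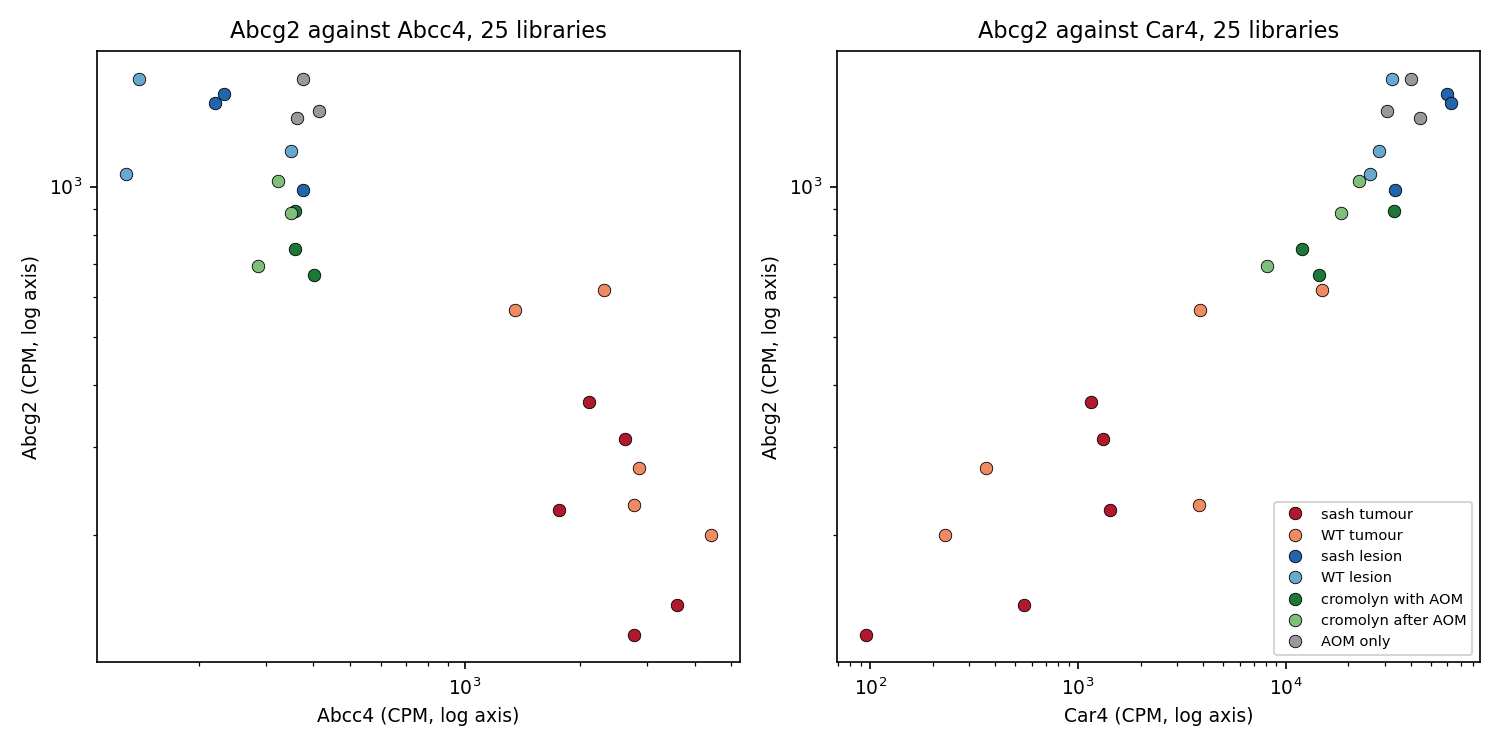
Abcg2 against Abcc4 (left) and against Car4 (right), both axes in CPM on log scales, 1 point per AOM library and colours by group. Over the 25 libraries r was -0.90 for Abcc4 and 0.95 for Car4. The tumours lie at high Abcc4, low Abcg2 and low Car4, and the cromolyn samples lie below the AOM-only samples in Abcg2.

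Among 805 genes with a mean of at least 10 counts, the 3 whose levels ran most like Abcg2 over the 25 libraries were Tsc22d3, a glucocorticoid-induced gene (r 0.96), Ceacam20, an apical epithelial adhesion molecule (0.96), and Car4 (0.95). Within groups r was 0.83, 0.84 and 0.76. In the 9 MC-38 libraries it was -0.55 for Tsc22d3 and 0.45 for Car4, and Ceacam20 had no counts there. Tsc22d3 fell by 1.60 on the log2 scale in sash tumours (SE 0.28, adjusted p 0.000339) and by 1.44 in wild-type tumours (SE 0.28, adjusted p 0.00115), and it was at -0.41 (adjusted p 0.253) with cromolyn during AOM and -0.38 (adjusted p 0.219) after it.

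Abcc4 ran most like Prrc2b (r 0.97; 0.86 within groups; 0.88 in the MC-38 libraries), Nfe2l3, a transcription factor of the NF-E2 family (0.97; 0.56; -0.73), and Fam3c, a secreted factor (0.96; 0.54; 0.29). Prrc2b held 1351 to 2162 CPM in the tumours of both genotypes and 677 to 1107 CPM in the samples of week 14. Its log2 fold change was 0.68 (SE 0.17, adjusted p 0.00486) in sash and 1.10 (SE 0.17, adjusted p 0.000334) in wild-type tumours, and that of Nfe2l3 was 4.43 (SE 0.58, adjusted p 3.89e-05) and 5.09 (SE 0.60, adjusted p 2.9e-05). Abcb9 ran most like Tnfrsf1b (0.82; 0.35; 0.32), Slc39a14 (0.81; 0.67; -0.43) and Canx (0.80; 0.32; -0.07). For Abcb4, at its low counts, the nearest were Gsta4 (0.63; 0.40; 0.40), Emp3 (0.63; 0.46; 0.59) and Pla2g7 (0.61; 0.36; -0.38). For each of these genes r was lower within groups than over the 25 libraries.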

How the data were processed

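Per the labels' protocols, RNA was read on an Illumina MiSeq after amplification of a targeted panel. The authors deposited whole-number counts per gene without normalisation, in 1 table of 25 AOM libraries and 1 of 9 MC-38 libraries, each with 988 genes and 5 control entries at 0, which were left out. The submitters' processing notes name the build mm9 and DESeq2. No source used here names the aligner or the counter, or says whether molecular tags were counted. MC-38 wild-type sample 2 and sash sample 3 were not analysed here.

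Counts were tested with edgeR 4.0.16 (R 4.3.3): TMM scaling, filterByExpr (minimum count 10, minimum total 15), robust quasi-likelihood test, Benjamini-Hochberg adjustment over all genes of a comparison. Genotypes were fitted within each stage, stages in a fit of the 4 tumour and lesion groups, and cromolyn in a fit of its 3 groups. A gene too low for the filter is given by counts, with exact intervals of the pooled ratio. Replicates differed by more than counting noise (chi-square per degree of freedom 6.17 to 205), so each library counted once. The steps were tested on simulated data. Deviations of same-numbered lesions correlated (r 0.37, 0.14 and 0.50 over genes), and lesions of different numbers were not compared. In every other set at least 1 pair had a negative r (-0.38 to 0.63 over pairs). The sample titles give no pairing, and the main fits used none, in the lesions as elsewhere. The replicate number as a block was an alternative only.

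The named genes are the 4 transporters, the other ABC genes of the panel, up to 6 called genes of smallest p from the substrate lists in a comparison, and the 3 genes most like each transporter. Outside that rule, Pde4b, Creb1, Lta4h, Cd163, Apoe and Pparg of the substrate lists are named. So are genes of the cell type and proliferation lists. The transporters and lists were chosen with earlier results of these data known. Alternatives were DESeq2 1.42.0, RLE factors, library totals, scaling on the 2 housekeeping genes of the panel (Rpl13a and Tfrc), no filter, the replicate block, all 25 AOM libraries in 1 fit and leaving out each sample. The runs without wild-type tumours 2 and 4 (the highest of that group in Abcg2) and with AOM only in place of the wild-type lesions were chosen after seeing the data. Promoter letters are from RefSeq (GRCm38.p6), a build other than that of the files.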

Additional observations from a re-analysis of the deposited data

How the results depend on the processing

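Calls of Abcc4 and Abcg2 between stages, and of Abcb9 in sash mice, held in all alternatives run. Abcc4 ran from 3.01 to 3.49 (log2) in sash and from 2.81 to 4.33 in wild-type mice, Abcg2 from -2.73 to -2.30 and from -2.49 to -1.57, and Abcb9 in sash mice from 1.24 to 1.59. The Abcg2 calls with cromolyn did not hold. With housekeeping scaling 0 transporters were called during AOM (Abcg2 -1.06, adjusted p 0.0760) and 0 after it (-0.87, 0.0679). With all 25 libraries in 1 fit, 0 were called during (-0.96, 0.796) and 0 after (-0.78, 0.611). Leaving out single samples gave 0 to 1 called in both, with Abcg2 from -1.04 to -0.87 during AOM and from -0.91 to -0.61 after it. The cause was not tested. Between wild-type lesions and AOM only, 1 was called with housekeeping scaling (Abcc4 -1.30, 0.0410), 1 with the replicate block (Abcc4 -1.08, 0.0458), and 0 to 2 with single samples left out. The block changed no other transporter's call.

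Signs turned for these uncalled values: Abcc4 between tumours (-0.27 to 0.13 over left-out samples), Abcg2 between tumours (0.0082 without wild-type tumours 2 and 4, whose high Abcg2 fixes the direction of this move), Abcg2 between lesions (-0.011 with housekeeping scaling, -0.076 to 0.27 over left-out samples), Abcc4 with cromolyn during AOM (0.0024 with library totals, -0.12 to 0.0075), Abcb9 there (-0.60 to 0.13), Abcb9 between wild-type stages (-0.17 with the block, -0.071 without wild-type tumours 2 and 4, -0.19 to 0.25) and the Abcb4 difference of genotype effects (-0.38 to 0.14). Abcb4 in sash lesions was 5.29 CPM by library totals, against 5.61 CPM.

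Counts of called genes over the settings, single samples aside, ran from 0 to 88 between tumours, 22 to 84 between lesions, 0 to 39 and 0 to 50 with cromolyn during and after AOM, 0 to 6 between schedules, 3 to 50 in MC-38, 172 to 410 and 282 to 462 between wild-type and sash stages, 0 to 20 for the difference and 85 to 199 between wild-type lesions and AOM only. Over left-out samples they ran from 0 to 17, 0 to 68 (0 without sash lesion 2, 68 without wild-type lesion 3), 0 to 18, 1 to 41, 0 to 3, 3 to 17, 183 (without wild-type lesion 1) to 367 for wild-type stages, 0 to 10 for the difference and 11 to 268 between wild-type lesions and AOM only. Library totals moved the median of all genes by up to 0.22 and housekeeping scaling by down to -0.43 (log2). Counts of 0 to 23 per library limit Abcb4, and Abcb9 in MC-38.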
